A study of Camelus dromedarius with 4 samples.

Results

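Nuclear steroid receptors and the enzymes and chaperone that set local steroid action were followed in the supraoptic nucleus (SON) of dromedary camels in winter and summer. The set held 9 genes, taken by symbol from a table of season means that covers 16053 gene symbols. They were the oestrogen receptors ESR1 and ESR2, the progesterone receptor PGR, the glucocorticoid receptor NR3C1, the mineralocorticoid receptor NR3C2, the 11-beta-hydroxysteroid dehydrogenases HSD11B1 and HSD11B2, the receptor co-chaperone FKBP5 and the aromatase gene CYP19A1. All 9 were in the table, and all 9 averaged 10 or more normalized reads in 1 season or both.

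Steroid receptors are transcription factors that are held by chaperones until a hormone binds them. The receptors for oestrogen, progesterone and glucocorticoid are intracellular proteins, so the amount of active hormone inside a cell matters as well as the amount of receptor. HSD11B1 regenerates active glucocorticoid from its inactive keto form and HSD11B2 inactivates it, which in some epithelia keeps glucocorticoid away from the mineralocorticoid receptor. Aromatase makes oestrogen from androgen. FKBP5 lowers the hormone affinity of the glucocorticoid receptor and is itself induced by glucocorticoid. In rodents the magnocellular neurones of the SON, which make vasopressin and oxytocin, are known for ESR2 more than for ESR1.

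RNA-seq was made from the SON of healthy adult male dromedaries of the Tergui breed, age-matched by their teeth, with 2 libraries from winter (replicates 2 and 3) and 2 from summer (replicates 1 and 2). The winter animals were slaughtered at El Oued and the summer animals at Ouargla, both in Algeria, so season, date and place cannot be told apart. No steroid treatment is named in the sources used here. Between 4379162 and 6902037 reads lay on gene models in each library, and the upper limit that a count of 0 leaves was 0.435 to 0.685 CPM, for counting error only.

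Each season mean is the average of the reads of 2 libraries after division by their size factors, called normalized reads here. The reads of each library were recovered by solving every mean for 2 whole numbers. In each season library A is the library with the larger size factor, which was 0.922 in summer A, 0.877 in summer B, 1.33 in winter A and 0.946 in winter B. These letters could not be tied to the replicate numbers. For 6 of the 9 genes the solution was single, and for NR3C1, NR3C2 and FKBP5 the winter reads had several solutions, all of which are given. With 2 libraries against 2, an exact permutation test over libraries cannot give a two-sided p below 0.333.

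The labelled tissue was checked against markers of the SON. OXT, the oxytocin precursor gene, had a mean of 592 normalized reads in summer and 621 in winter, and PDYN, the prodynorphin gene of vasopressin neurones, had 127 and 35.9. The winter mean of PDYN joined 63.4 normalized reads in winter A and 8.46 in winter B. Over PDYN, SIM1, OTP and CALB1, the 4 magnocellular markers with recovered reads, the sum was 286 in winter A and 89.9 in winter B, against 229 and 321 in summer A and B. Winter B was the lowest library for PDYN, SIM1 and OTP. For CALB1 the lowest was summer A, with 10.8 against 46.5 in winter B. The part of these differences in the values below was not tested. The symbol AVP, also among the 6 magnocellular markers chosen, had no season means here and could not be analysed. Astrocyte and oligodendrocyte markers were read, with 25074 and 14423 for GFAP and 4571 and 7277 for MBP. The 6 astrocyte markers ranged from GFAP down to AQP4, which was counted 9 and 9 times in summer and 9 and 3 times in winter. Genes of the anterior pituitary were also read, with 464 and 1132 for GH1 and 1294 and 738 for POMC. The libraries thus held RNA of other cells than magnocellular neurones, and the cells that carry each receptor were not resolved. The part of these other cells in the values below was not tested. In bulk tissue, fewer cells of a type and less RNA per cell cannot be told apart.

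The summer libraries stood apart from each other. Olfactory receptor genes, which are normally expressed in nasal epithelium, summed to 1601 normalized reads in summer A and 8064 in summer B, against 2475 in winter A and 3730 in winter B, over 241 genes. Between the summer libraries 26.8% of the 7643 tested genes were more than 2-fold higher in library B, and 6.33% more than 2-fold lower, while in winter 5.05% were more than 2-fold higher in library B and 9.97% lower. The SD of the log2 ratio of B to A was 1.45 in summer and 0.74 in winter. The season ratios of the 9 genes are therefore also given without single libraries, whereas list counts and season means use all libraries.

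On the season means, 3 of the 9 genes were more than 2-fold higher in summer (ESR1, ESR2 and CYP19A1) and 1 was more than 2-fold higher in winter (HSD11B2). Among the 13811 genes that averaged 10 or more in either season, 7.26% differed by more than 2-fold, 4.53% with the higher mean in summer and 2.72% with the higher mean in winter. ESR1, CYP19A1 and HSD11B2 reached the minimum of 10 in 1 season only, so their means had to differ and their count is no support for a difference. None of the 6 genes with single solutions passed the rule of the study (an unadjusted p under 0.05 and more than 2-fold) when the reads were fitted with edgeR (quasi-likelihood), where 1.67% of 7643 genes did, 0.85% with higher values in winter and 0.824% in summer. No gene of the 7643 had an adjusted p under 0.05 in that test, while 1.99% (152 genes) had an unadjusted p under 0.05, and edgeR's exact test and DESeq2 each gave 1 gene at an adjusted p under 0.05.

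**Figure D1:**
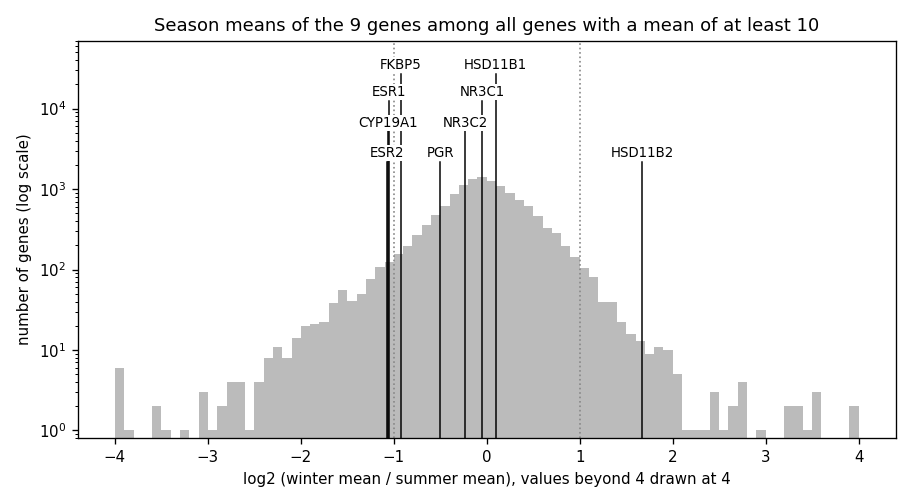
Histogram of log2 (winter mean / summer mean) over genes averaging 10 or more in either season and above 0 in both (count on a log axis), with the 9 steroid genes as labelled lines and dotted lines at 2-fold. ESR1, ESR2 and CYP19A1 lie just past 2-fold towards summer, FKBP5 lies just short of it, HSD11B2 lies towards winter at 1.67, and NR3C1, NR3C2 and HSD11B1 lie near the middle.

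The oestrogen receptor genes were read at low levels, with the highest value in summer library B. For ESR1, which encodes oestrogen receptor alpha, the count was 8 in summer A, 28 in summer B, 12 in winter A and 10 in winter B. Divided by the size factors these were 8.68 and 31.9 normalized reads in summer and 9.06 and 10.6 in winter. Library B of summer was the highest and library A of summer the lowest, so the winter libraries lay between them and the seasons overlapped. The summer mean of 20.3 was 2.07 times the winter mean of 9.82, and the fitted log2 fold change of winter over summer was -1.04 ± 0.87 (SE, unadjusted p = 0.269, adjusted p = 0.982, edgeR quasi-likelihood with Benjamini-Hochberg adjustment over the 7643 genes, as for every p here).

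For ESR2, which encodes oestrogen receptor beta, 12 and 45 reads came from the summer libraries (A and B) and 14 and 19 from the winter libraries. Its normalized reads were 13.0 and 51.3 in summer and 10.6 and 20.1 in winter. Again the highest value was in summer B, and summer A lay between the winter libraries. The summer mean of 32.2 was 2.10 times the winter mean of 15.3, with a log2 fold change of -1.10 ± 0.83 (SE, unadjusted p = 0.223, adjusted p = 0.982, edgeR).

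PGR, whose transcription is induced by oestrogen in many tissues, was counted 59 and 169 times in the summer libraries and 102 and 99 times in winter, or 64.0 and 193 normalized reads in summer and 77.0 and 105 in winter. The winter libraries lay between the summer libraries, as for ESR1. The summer mean of 128 was 1.41 times the winter mean of 90.8, and the log2 fold change was -0.50 ± 0.52 (SE, unadjusted p = 0.367, adjusted p = 0.982, edgeR). The 3 receptor genes thus had the same order of summer libraries, with B 3.68 times A for ESR1, 3.94 times for ESR2 and 3.01 times for PGR.

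CYP19A1 was close to the limit of detection. It had no reads in summer A, 18 in summer B, 6 in winter A and 5 in winter B, and the 20.5 normalized reads of summer B compare with 4.53 and 5.29 in winter. A count of 0 in summer A allows up to 3.25 normalized reads (3 reads), so summer B was at least 6.31-fold higher than summer A, for counting error only. The whole summer mean of 10.3, 2.09 times the winter mean of 4.91, came from 1 library. The fitted log2 fold change of -1.03 ± 1.31 (SE, unadjusted p = 0.453, adjusted p = 0.982, edgeR) depends on how the 0 is handled and is no bound.

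**Figure D2:**
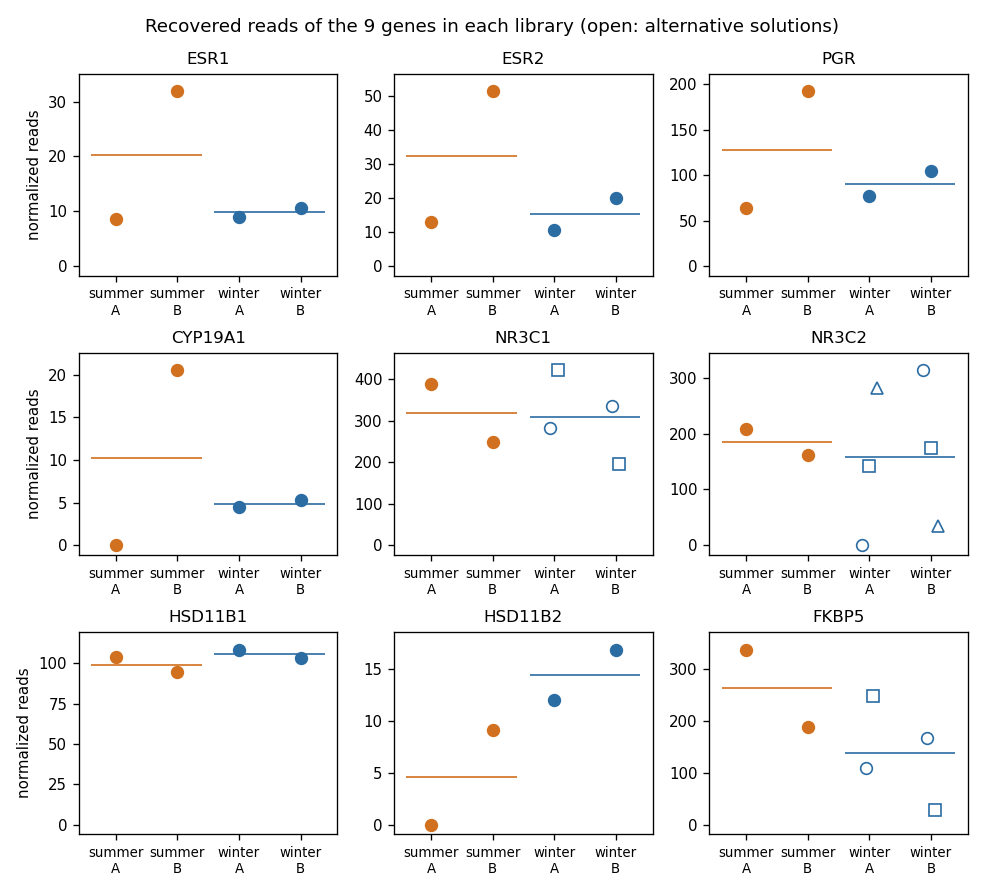
Normalized reads (reads divided by the size factor of the library) of the 9 genes in each of the 4 libraries, with a line at each season mean; each panel has its own linear axis, and open circles, squares and triangles are alternative winter solutions of the same mean. ESR1, ESR2, PGR and CYP19A1 have their highest value in summer library B, while HSD11B1 is nearly level and HSD11B2 is lowest in summer library A.

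The share of reads in library B gave the difference between the summer libraries without the fit. At equal levels, 48.8% of summer reads of a gene would lie in library B. Of the summer reads in B there were 77.8% for ESR1 (exact 95% interval 60.8 to 89.9), 78.9% for ESR2 (66.1 to 88.6), 74.1% for PGR (67.9 to 79.7), 100% for CYP19A1 (81.5 to 100) and 100% of only 8 reads for HSD11B2 (63.1 to 100). These intervals cover counting error only and lie above the share at equal levels. The same share was below it for NR3C1, at 37.8% (33.8 to 41.9), NR3C2, at 42.3% (37.0 to 47.8), and FKBP5, at 34.7% (30.5 to 39.2). The interval of HSD11B1 held the equal share, at 46.4% (38.9 to 54.0). These intervals do not measure the spread between animals. Of all tested genes 61.8% were higher in summer B and 38.1% in summer A, and 22.2% had a lower ratio of B to A than NR3C2, 13.3% than NR3C1 and 8.83% than FKBP5, while 84.8% had a lower ratio than ESR1, 86.1% than ESR2 and 82.8% than PGR.

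Olfactory receptor genes were also higher in summer B. Among the 126 olfactory receptor genes tested, 83.3% were more than 2-fold higher in summer B than in summer A, with a median log2 ratio of 3.26, against 26.8% of all genes. The summed olfactory receptor reads ordered the libraries as summer A, winter A, winter B and summer B, and ESR1, PGR and CYP19A1 followed that order, as did 12.1% of all tested genes. On the season means, 35.8% of 134 olfactory receptor genes were more than 2-fold higher in summer. The part that this difference between libraries had in the values of ESR1, ESR2, PGR and CYP19A1 was not tested.

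**Figure D3:**
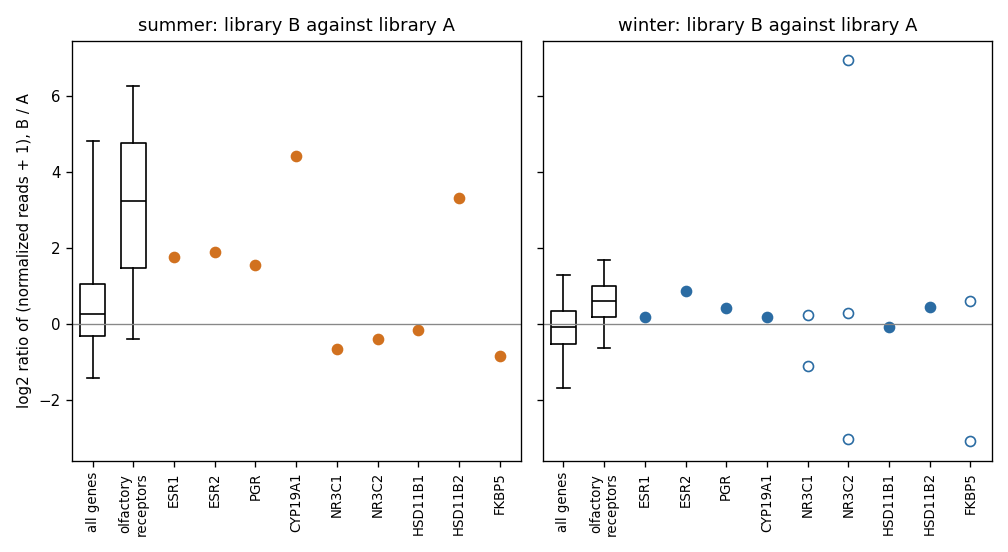
Log2 ratio of library B to library A (normalized reads + 1) within summer and within winter, as boxes for all 7643 tested genes and for 126 olfactory receptor genes (line, median; box, quartiles; whiskers, the central 95%) and as points for the 9 genes (open, alternative winter solutions). In summer ESR1, ESR2, PGR, CYP19A1 and HSD11B2 lie above 1, and NR3C1, NR3C2, HSD11B1 and FKBP5 lie below 0.

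Leaving out 1 summer library turned the direction of these 4 genes. Without summer B, the summer value was 8.68 against a winter mean of 9.82 for ESR1, 13.0 against 15.3 for ESR2 and 64.0 against 90.8 for PGR, so the log2 ratios of winter to summer became 0.18, 0.24 and 0.51. For CYP19A1 the winter mean was then at least 1.51-fold higher than the floor of summer A. Without summer A, the log2 ratios were -1.70, -1.74 and -1.08 for the receptors and -2.06 for CYP19A1, and all 4 genes passed the rule of the study, where 14.5% of all genes tested did. Leaving out a winter library kept the summer mean higher for each of the 4 genes. A fit with a lone library assumes that it varies like the other libraries, and the season direction of these genes rested on which summer library was used.

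**Figure D4:**
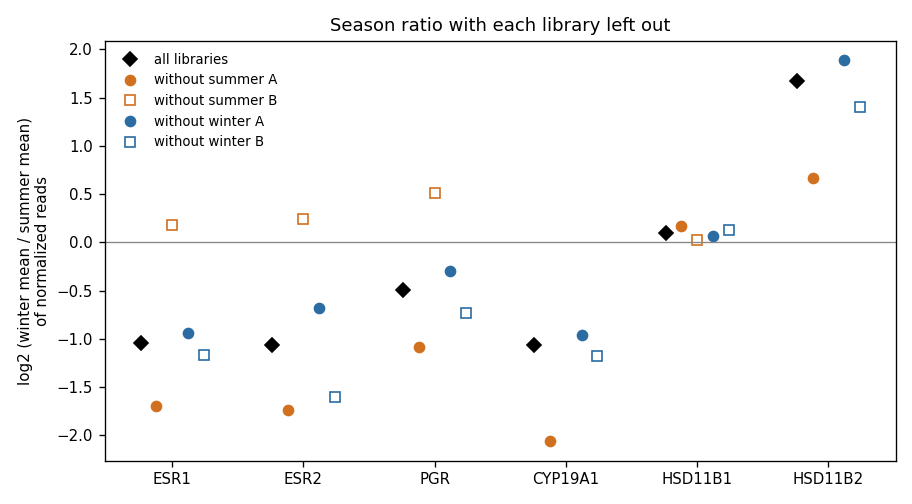
Log2 (winter mean / summer mean) of normalized reads for the 6 genes with single solutions, from all libraries (diamonds) and with each library left out (circles, library A; open squares, library B; orange, summer; blue, winter). ESR1, ESR2 and PGR lie below 0 except without summer library B; CYP19A1 and HSD11B2 have no point without summer B, because summer A held no read.

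The corticosteroid receptor genes had nearly level season means. NR3C1, the glucocorticoid receptor gene, had a mean of 319 normalized reads in summer and 308 in winter, and 48.9% of all genes had a lower ratio of winter to summer. Its summer libraries held 359 and 218 reads, or 389 and 248 normalized reads. The winter mean was met by 373 and 317 reads (281 and 335 normalized) or by 558 and 185 (421 and 196 normalized), and the seasons overlapped either way. The log2 fold change was -0.05 ± 0.37 (SE) or -0.04 ± 0.46 (SE), with an unadjusted p of 0.896 or 0.928 and an adjusted p of 0.989 or 0.996 in edgeR, and the sign turned to 0.02 or 0.0049 when libraries were scaled by total counts.

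NR3C2, the mineralocorticoid receptor gene, had 192 and 141 reads in summer, or 208 and 161 normalized reads. For winter, 187 and 164 reads (141 and 173 normalized), 2 and 296 (1.51 and 313 normalized) or 372 and 32 (281 and 33.8 normalized) gave the same mean. The solutions put very different distances between the winter libraries. Of 2414 genes with a single solution and a winter mean of 50 to 100, 60.4% had winter libraries farther apart than 187 and 164 reads put them, 0.124% than 372 and 32 reads, and 0% than 2 and 296 reads. The summer mean of 184 was 1.17 times the winter mean of 157, and the log2 fold change was -0.23 ± 0.34 (SE, unadjusted p = 0.509, adjusted p = 0.981, edgeR) with 187 and 164 reads, -0.26 with 2 and 296 and -0.21 with 372 and 32. With 1 library left out, the log2 ratio ranged from -0.40 to -0.03 with 187 and 164 reads, from -6.93 to 0.76 with 2 and 296, and from -2.45 to 0.61 with 372 and 32.

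HSD11B1 varied least of the 6 genes with single solutions when libraries were left out. Its summer libraries held 96 and 83 reads and its winter libraries 144 and 98, or 104 and 94.6 normalized reads in summer and 109 and 104 in winter. The 4 values lay within a narrow range, and summer A fell between the winter libraries. The winter mean of 106 was 1.07 times the summer mean of 99.4, with a log2 fold change of 0.10 ± 0.33 (SE, unadjusted p = 0.778, adjusted p = 0.986, edgeR) and log2 ratios from 0.03 to 0.17 with 1 library left out. H6PD, which supplies the cofactor that HSD11B1 needs to make active glucocorticoid, was level as well on the season means, with 149 normalized reads in summer and 150 in winter.

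HSD11B2 was higher in winter on the means, the reverse of ESR1, ESR2 and CYP19A1, and was near the floor. It had no reads in summer A, 8 in summer B and 16 in each winter library, or 9.12 normalized reads in summer B and 12.1 and 16.9 in winter. The lower winter library exceeded the higher summer library, as happened for 13.3% of the tested genes. The winter mean of 14.5 was 3.18 times the summer mean of 4.56, and 99.5% of genes had a lower ratio. HSD11B2 reached the minimum mean of 10 in winter only, so this place is partly fixed by the filter and is no support for a difference. The log2 fold change was 1.65 ± 1.16 (SE, unadjusted p = 0.195, adjusted p = 0.982, edgeR). Without summer A the log2 ratio fell to 0.67, and without summer B the winter mean was at least 4.46-fold higher than the floor of summer A. In that fit HSD11B2 passed the rule of the study, as did 15.2% of all genes tested.

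FKBP5 had the highest summer value in library A, the opposite of the oestrogen receptor genes. The summer libraries held 312 and 166 reads, or 338 and 189 normalized reads. The winter mean was met by 145 and 159 reads (109 and 168 normalized), which puts both summer libraries above both winter libraries, as in 17.2% of tested genes, or by 330 and 27 reads (249 and 28.6 normalized), where the seasons overlap. Of the 2414 reference genes, 29.2% had winter libraries farther apart than 145 and 159 reads put them and 0.0829% than 330 and 27 reads. The summer mean of 264 was 1.90 times the winter mean of 139, and 5.37% of genes had a lower ratio of winter to summer.

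The log2 fold change of FKBP5 was -0.93 ± 0.42 (SE, unadjusted p = 0.0570, adjusted p = 0.982, edgeR, Benjamini-Hochberg) with 145 and 159 reads. With 330 and 27 reads it was -0.90 ± 0.79 (SE, unadjusted p = 0.289, adjusted p = 0.982, edgeR). Its direction did not rest on summer B. With 145 and 159 reads the log2 ratio stayed below 0 when any 1 library was left out, from -1.29 without summer B to -0.45 without summer A. With 330 and 27 reads it ranged from -3.21 without winter A to -0.08 without winter B, where little of the difference was left. Without summer B the adjusted p from edgeR was 0.0461 with 145 and 159 reads and 0.0513 with 330 and 27 reads, in a fit that rests on a lone summer library and in which 2.96% of all genes (226) had an adjusted p under 0.05, and with any other library left out it was 0.808 or higher with either.

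Other genes that glucocorticoid induces were set beside FKBP5. Of 22 with a mean of at least 10, 15 had the higher mean in summer (68.2%, against 53.8% of all genes). Beside 7.26% of all genes, 1 of the 22 was more than 2-fold apart, with the higher mean in winter. Their median log2 ratio of winter to summer was -0.14, against -0.04 over all genes, and none of the 9 tested genes passed the rule of the study. GLUL, which encodes glutamine synthetase, had 3450.4 normalized reads in summer and 3194 in winter, and SGK1, a kinase gene induced by both corticosteroid receptors, had 954 and 663. TSC22D3, the glucocorticoid-induced leucine zipper gene, had 410 and 258, and TXNIP, which encodes a thioredoxin inhibitor, had 834 and 463. NFKBIA, which encodes an inhibitor of NF-kappaB, was counted 187 and 168 times in summer and 172 and 81 times in winter (log2 fold change -0.86 ± 0.35 SE, unadjusted p = 0.0411, adjusted p = 0.982 with edgeR), less than 2-fold, and its log2 fold change ranged from -1.20 to -0.60 with 1 library left out. In the other direction BCL6, a transcriptional repressor gene, had 28.6 in summer and 58.9 in winter, and the clock gene PER1 had 327 and 439. The genes after SGK1 in this paragraph were chosen after their values were seen.

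**Figure D5:**
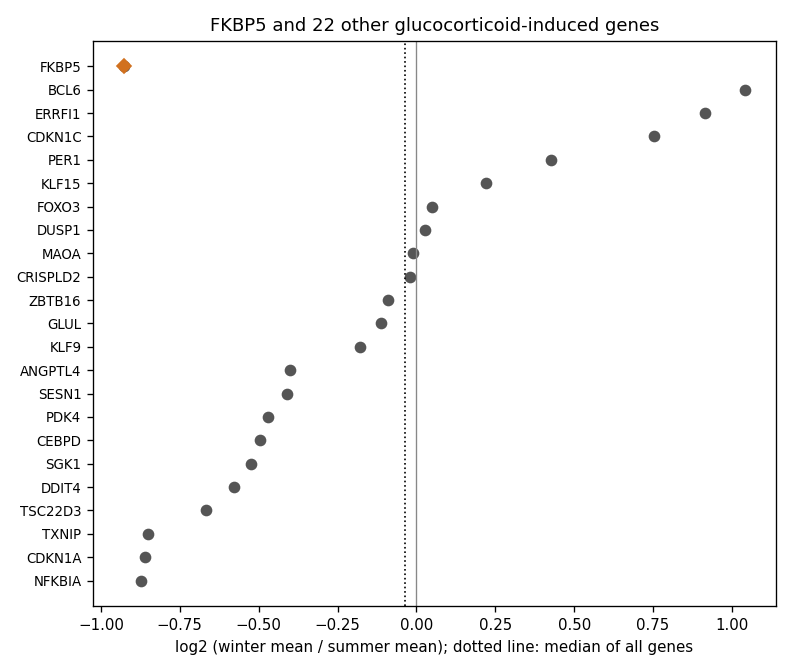
Log2 (winter mean / summer mean) for FKBP5 (diamond) and 22 other glucocorticoid-induced genes (circles), with a solid line at 0 and a dotted line at the median of all genes, -0.04. FKBP5 lies at -0.93, lower than each of the 22, and the 22 spread from -0.87 for NFKBIA to 1.04 for BCL6.

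Targets of the other receptors were mostly less than 2-fold apart on the season means. Of 7 oestrogen and progesterone responsive genes with a mean of at least 10, 1 was more than 2-fold apart, as were 7.26% of all genes. None of 5 tested passed the rule. CTSD, the cathepsin D gene, had 560 normalized reads in summer and 601 in winter, and XBP1, a transcription factor gene of the secretory pathway, had 500 and 370. The exception was MYB, named for its value, with 0 and 66 summer reads and 17 and 9 winter reads, so that its summer mean also came from library B alone. Of 5 genes of the mineralocorticoid pathway in sodium transport none was more than 2-fold apart, and the sodium pump subunit gene ATP1B1 had 748 in summer and 952 in winter.

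The other steroid receptors were mostly less than 2-fold apart as well. Of 9 other receptor genes with a mean of at least 10, 1 was more than 2-fold apart, as were 7.26% of all genes. This was the orphan receptor gene NR4A1, counted 7 and 55 times in summer and 24 and 6 times in winter, chosen for that value. None of the 8 tested genes passed the rule. PGRMC1, a membrane progesterone receptor component gene, had means of 267 and 351, and ESRRB, an oestrogen-related receptor gene, had 119 and 95.8.

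All 10 chaperone genes and all 13 coregulator genes of the receptors had a mean of at least 10. HSP90AA1 and HSPA8, heat shock protein genes whose reads may be shared with near-identical copies, had 6398 and 4589 normalized reads in summer and 7907 and 4718 in winter. None of the 10 chaperone genes was more than 2-fold apart, and 9 of them had the higher mean in winter, as did 46.2% of all genes. Of 13 coregulator genes, 1 was more than 2-fold apart, with the higher mean in winter, beside 7.26% of all genes in either direction. NCOR1, which encodes a corepressor, had 1350.4 in summer and 1797 in winter. Only 2 chaperone genes and 1 coregulator gene had single solutions and could be tested, and none passed the rule. The tested coregulator gene was EP300, an acetyltransferase gene, with 59 and 65 summer reads and 149 and 133 winter reads, a log2 fold change of 0.87 ± 0.35 (SE, unadjusted p = 0.0390, adjusted p = 0.982, edgeR) that ranged from 0.70 to 1.03 with 1 library left out.

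In steroid synthesis and conversion, 1 gene passed the rule. SULT1E1, which encodes an oestrogen sulphotransferase that inactivates oestrogen, gave 68 and 110 summer reads and 62 and 46 winter reads, or 73.7 and 125 normalized reads in summer and 46.8 and 48.6 in winter. Both summer libraries lay above both winter libraries, as in 17.2% of tested genes. Its log2 fold change was -1.06 ± 0.41 (SE, unadjusted p = 0.0350, adjusted p = 0.982, edgeR, Benjamini-Hochberg), and it was the 1 gene of the 49 tested in all lists to pass, where 0.824% of all tested genes passed with the higher value in summer. Leaving out either winter library, after which 0.458% (without A) and 0.654% (without B) of all genes passed, scaling by total counts, or DESeq2 ended that call. Leaving out summer B moved the log2 fold change to -0.63 ± 0.50 (SE), less than 2-fold, and leaving out summer A moved it to -1.39. Each of these 2 fits rests on a lone summer library.

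Of 19 conversion genes with a mean of at least 10, 2 were more than 2-fold apart, beside 7.26% of all genes. They were SULT1E1 and HSD17B3, the latter an androgen-making enzyme gene with 0 and 22 summer reads and 8 and 3 winter reads, named for that value. HSD17B4, a peroxisomal enzyme gene, had 609 normalized reads in summer and 633 in winter, and HSD17B12 had 138 and 167. None of 8 genes of steroid synthesis and transport was more than 2-fold apart. POR, the electron donor for steroidogenic cytochromes, had 205 and 291, and STARD3, a cholesterol transporter gene, had 121 and 163. Genes for supply of glucocorticoid to tissue were mostly near the floor, and of 2 with a mean of at least 10, ABCB1, an efflux pump gene of the blood-brain barrier, held 168 and 138 summer reads and 120 and 136 winter reads, while CRHR1, a receptor gene for corticotropin-releasing hormone, held 38 and 31 summer reads and 70 and 59 winter reads.

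The patterns over the 4 libraries were compared by the root mean square difference of centred log2 (normalized reads + 1). ESR1 lay 0.24 from PGR and 0.24 from ESR2, while ESR1 lay 0.79 from HSD11B1 and 1.60 from HSD11B2. Among all 7643 tested genes, those nearest ESR1 were TG (thyroglobulin; 0.06) and the olfactory receptor gene OR2B6 (0.07). The gene nearest CYP19A1 was the olfactory receptor gene OR7G1 (0.07), with 4 and 95 summer reads and 35 and 27 winter reads. An olfactory receptor gene was thus among the 2 nearest genes for ESR1 and CYP19A1. ESR2 was nearest to ITGA2 (0.03) and DLEU7 (0.06), and PGR to DMRT1 (0.02) and MYOF (0.03). HSD11B1 was nearest to LRRC53 (0.01) and CORO1B (0.03), and HSD11B2 to C19ORF45 (0.16) and TMEM177 (0.20). With 4 libraries, this likeness is a description only.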

How the data were processed

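The 4 SON libraries were put into 2 winter and 2 summer libraries by the season in their labels. The authors prepared stranded total RNA libraries after rRNA removal, used TopHat to align paired-end reads to a draft assembly of their own and HTSeq to count them. The deposited count files hold raw read counts for 64989 gene models without gene names, and were used here for depth only: 20.7% to 27.8% of the tallied alignments lay on gene models, and the tallies of other reads stayed out of the totals. The deposited table of gene symbols holds, per season, a signal made by the authors (read counts scaled by DESeq size factors, then averaged). Its fold change and p-value columns hold the authors' own edgeR comparison and were not used.

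Of 18152 symbol rows, 16053 had season means. Each mean was solved for 2 whole reads within its 6 significant digits; all low means were whole (100% against 0.0436% in summer and 0.0402% in winter after a random shift), and 9888 symbols had a single solution in both seasons. Single solutions were rarer in winter (42.6% for means of 100 to 200), so tested genes favour low winter means. Genes with a single solution and 10 or more normalized reads on average in either season entered edgeR 4.0.16 (R 4.3.3; glmQLFit and glmQLFTest, size factors of the steps, season as the only term, Benjamini-Hochberg adjustment). SE is the log2 fold change divided by the square root of F. Of the genes with several solutions, only the members NR3C1, NR3C2 and FKBP5 were fitted, with each solution in turn. Other genes with several solutions were not tested. The fit and the solving of reads were tested on simulated data, with 200 genes set 4-fold apart. At a coefficient of variation of 0.46, that of the fit, 147 of the 200 passed the rule and 21 had an adjusted p under 0.05. There 350 unchanged genes also passed the rule. At 0.2, the same counts were 200, 193 and 104. Of 3000 simulated pairs of season means, 1836 had a single solution, and all 1836 were right.

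Intervals are exact binomial (Clopper-Pearson), and floors are 3 reads; both cover counting error only. Within-season ratios used a pseudocount of 1. The study describes the RNA-seq samples as camels, so the libraries of a season are taken as separate animals. Alternatives were DESeq2 1.42.0, edgeR's exact test, other scalings, filters and fold thresholds, and leaving out each library. Leaving out libraries over all genes and the lists, scalings of the lists, and the olfactory receptor genes (by symbol) were added after seeing the data. The members and lists were chosen with earlier results of these data known. Named genes were the 9 members, H6PD, list genes past the rule or otherwise the 2 of highest mean in each list, and the 2 genes most like each member; others are marked. Values of some genes under this rule are not reported here. Levels are not compared between genes, since transcript lengths were not used. No sequences or coordinates are given. Figures were drawn with matplotlib 3.10.9.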

Additional observations from a re-analysis of the deposited data

How the results depend on the processing

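No paired analysis was possible, because the winter and summer libraries came from different slaughtered animals. The shared replicate number 2 gives no pairing, and the recovered libraries carry no number. Counts over all genes below are out of 7643 tested genes, with 2 exceptions. With a mean of at least 10 in both seasons 6781 genes were tested, and with low means only 4570. The smaller counts of these 2 settings are thus not smaller shares by themselves. Of all genes tested, 128 passed the rule of the study, against 60 with DESeq2, 79 with a mean of at least 10 in both seasons, 80 with low means only and 66 at 3-fold, and between 35 and 1159 with 1 library left out (1106 without summer A, 1159 without summer B, 35 without winter A, 50 without winter B). Those higher in winter made up 50.8% of the calls, 72.6% with total count scaling, and from 14.4% (without summer A) to 82.1% (without summer B) with 1 library left out. At an adjusted p under 0.05 there were 0 genes, 1 with edgeR's exact test, 1 with DESeq2, and 0 to 258 with 1 library left out. Of the 6 steroid genes with single solutions 0 passed in the other tests and scalings and with no filter, 0 of the 3 left by a mean of at least 10 in both seasons and 0 of the 4 with low means passed, and 0 to 4 did with 1 library left out. Of the 49 list genes 1 passed (SULT1E1), and 0 with DESeq2 and with total count scaling. Among the 26 list genes with low means 0 passed, but SULT1E1 averaged above 60 and was left out there. That 0 is thus no test of its call. Of the 9 season means, 4 were more than 2-fold apart, 2 with a pseudocount of 1, 1 with a pseudocount of 5, 1 at 3-fold and 1 with a mean of at least 10 in both seasons. With 1 library left out, fitted log2 fold changes ranged from -1.70 to 0.17 for ESR1, -1.76 to 0.20 for ESR2, -1.09 to 0.50 for PGR and -2.05 to 5.41 for CYP19A1 (against a count of 0, so no bound). For NR3C1 they ranged from -0.34 to 0.31 with 373 and 317 winter reads and from -0.70 to 0.40 with 558 and 185, with 0.0174 and 0.0049 under total count scaling. For FKBP5 they ranged from -1.29 to -0.45 with 145 and 159 winter reads and from -3.20 to -0.08 with 330 and 27. For NR3C2 they ranged from -6.82 to 0.76 with 2 and 296 winter reads and from -2.44 to 0.61 with 372 and 32. The causes of these shifts were not tested. The 2 libraries per season limit every difference.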
